A study of Mus musculus with 4 samples.

Results

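The histone cluster genes are the genes for the core histones H2A, H2B, H3 and H4 and the linker histone H1 that lie together in 4 named clusters. They were taken as the protein-coding genes of GENCODE M21 whose symbols begin with Hist1h, Hist2h, Hist3h or Hist4h, which gave 67 of the 21670 protein-coding genes on the autosomes and chromosome X. Trimethylation of histone H3 at lysine 4 (H3K4me3) was measured by chromatin immunoprecipitation and sequencing on hearts of adult female mice of the hybrid B6CASTF1/J, 2 months old, with no treatment named in the labels. There were 2 pools, G and H, each made from 2 heart biosamples and sequenced as 2 technical replicates. The labels of both pools point to a single donor record and do not say whether the pools came from separate animals. Peak lists on the mouse assembly mm10 were analysed: 1 list for each pool, 1 list called replicated for both pools and 1 list called pseudoreplicated for both pools. They held 24826 peaks for pool G, 21505 for pool H, 24996 in the replicated list and 26412 in the pseudoreplicated list, and nothing used here gives the read depth behind them.

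Most of these genes are known as replication-dependent histone genes. They are transcribed when cells copy their DNA, mostly lack introns, and their messages end in a stem-loop in place of a poly(A) tail. A few members are known instead for male germ cells. H3K4me3 marks the first nucleosomes of active promoters and is laid down by methyltransferase complexes that are drawn to CpG-rich DNA. Most heart muscle cells of an adult mouse no longer divide, while the other cell types of the heart keep some capacity to do so.

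The sequence features looked for in the members' promoters were the TATA box (TATAAA), the CCAAT box (CCAAT), the octamer bound by POU factors (ATGCAAAT) and a motif known from H2A and H2B promoters (TTTNGCGC). Both strands were searched from 250 bases before to 50 bases after the RefSeq start, and a promoter was found for 62 of the 67 members in the RefSeq table of GRCm38.p6, the assembly that mm10 is made from. The 200 bases before the start are shown, 5′ to 3′ on the gene's strand, for 5 members that the results below turn on, with each of the 4 motifs in capitals. Hist1h2bn (chr13:21753876-21754075, plus strand) encodes an H2B and had a peak, while Hist1h2ba (chr13:23934157-23934356, minus strand) encodes the testis H2B and had none. Hist1h1c (chr13:23738607-23738806, plus strand) had the highest H1 peak, and Hist1h1t (chr13:23695611-23695810, plus strand) encodes the testis H1 and had none. Hist1h2bq (chr13:21810200-21810399, minus strand) had no peak and stands for a copied stretch of the genome, since its 300 RefSeq promoter bases are the same as those of Hist1h2br.
Hist1h2bn: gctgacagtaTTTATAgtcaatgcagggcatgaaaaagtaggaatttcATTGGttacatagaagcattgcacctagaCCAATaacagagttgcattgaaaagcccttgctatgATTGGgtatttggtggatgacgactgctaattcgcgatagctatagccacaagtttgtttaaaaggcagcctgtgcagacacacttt
Hist1h2ba: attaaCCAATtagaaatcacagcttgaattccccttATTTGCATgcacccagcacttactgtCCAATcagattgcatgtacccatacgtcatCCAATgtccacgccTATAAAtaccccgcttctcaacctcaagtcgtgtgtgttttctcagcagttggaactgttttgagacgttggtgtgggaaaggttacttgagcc
Hist1h1c: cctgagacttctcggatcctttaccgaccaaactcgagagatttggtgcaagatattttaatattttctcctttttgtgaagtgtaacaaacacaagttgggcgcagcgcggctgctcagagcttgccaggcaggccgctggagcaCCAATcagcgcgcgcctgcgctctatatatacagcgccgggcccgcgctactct
Hist1h1t: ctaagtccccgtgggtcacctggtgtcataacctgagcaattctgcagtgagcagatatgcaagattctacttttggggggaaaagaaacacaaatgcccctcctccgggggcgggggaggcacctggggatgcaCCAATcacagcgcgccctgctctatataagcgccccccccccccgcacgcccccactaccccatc
Hist1h2bq: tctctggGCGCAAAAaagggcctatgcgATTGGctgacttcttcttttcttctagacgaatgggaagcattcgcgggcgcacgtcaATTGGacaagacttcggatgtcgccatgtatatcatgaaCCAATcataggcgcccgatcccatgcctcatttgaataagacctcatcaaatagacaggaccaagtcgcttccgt

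All 200 bases shown lay in a peak for Hist1h2bn and for Hist1h1c, and no base did for the other members shown. The CpG content of these stretches did not order them in the same way. There were 3 CpG sites in the stretch of the occupied Hist1h2bn and 5 in that of the unoccupied Hist1h2ba. Hist1h1c had 15, Hist1h1t had 8, and Hist1h2bq had 13. Motifs were also present on both sides: CCAAT occurred in all 5 stretches, and Hist1h2ba held the octamer and a TATA box.

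A member was called occupied where a peak came within 1000 bp of any start of its coding transcripts. In the replicated list, 56 of the 67 members were occupied, or 83.6%, beside 63.0% of all protein-coding genes. Pool G's own list gave 57 members (63.4% of all genes), pool H's list 54 members (61.3% of all genes) and the pseudoreplicated list 57 members (63.4% of all genes). Over the pools that is 55.5 ± 2.12 members (SD, n = 2 pools). There were 54 members occupied in all 4 lists and 10 in none. The remaining 3 changed with the list: Hist1h3h and Hist1h4b lacked a peak in pool H alone, and Hist2h3c1 had a peak in pool G and in the pseudoreplicated list alone. Peak lists carry no values per library, so no test between pools or groups of members was made, and the shares are descriptions.

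**Figure D1:**
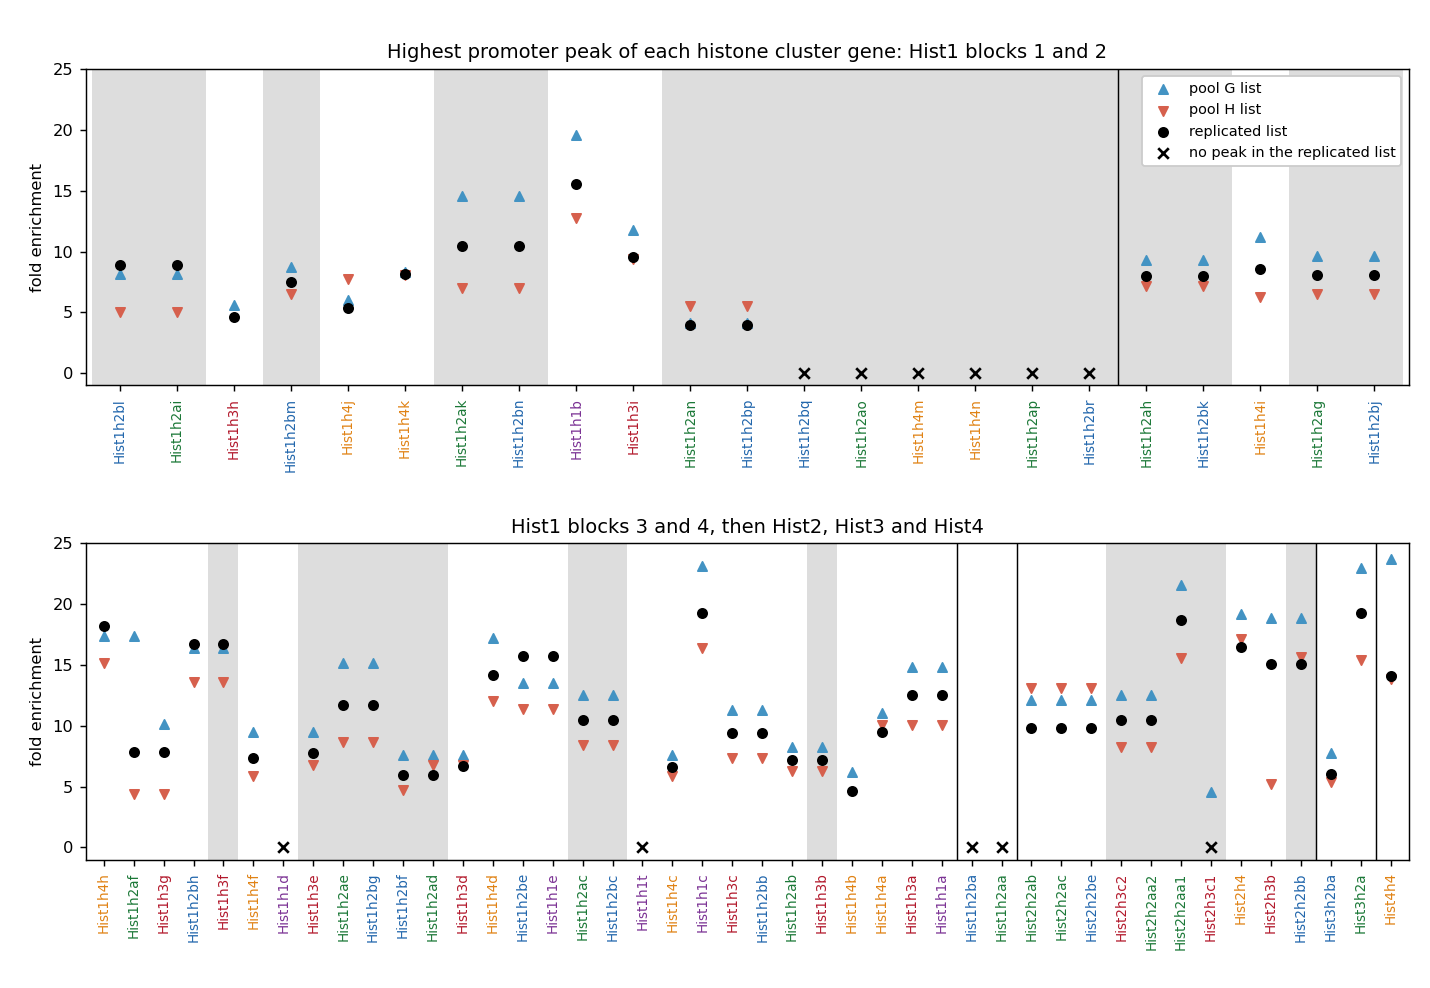
Fold enrichment (vertical axis) of the highest promoter peak of each of the 67 members, in chromosomal order, in the replicated list (circles) and in the lists of pool G (upward triangles) and pool H (downward triangles). Crosses mark the 11 members with no promoter peak in the replicated list, grey columns mark members with a repeated promoter window, vertical lines separate blocks, and label colours give the histone type as in the maps; 6 of the 11 crosses lie side by side in Hist1 block 1.

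The 11 members without a peak in the replicated list were few in kind. All 3 testis-specific members were among them: Hist1h1t (the testis linker histone), Hist1h2ba and Hist1h2aa (the testis H2B and H2A). A second group was Hist1h2bq, Hist1h2ao, Hist1h4m, Hist1h4n, Hist1h2ap and Hist1h2br, which are neighbours in the Hist1 cluster. The last 2 were Hist1h1d, a linker histone gene, and Hist2h3c1, an H3 gene. Leaving out the testis-specific members and those whose promoter sequence recurs in the genome (defined below), 32 of 33 members were occupied, with Hist1h1d the exception.

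The Hist1 members were split into blocks wherever 2 neighbouring starts lay over 100000 bp apart, which gave 4 blocks on chromosome 13. Block 1 held 18 members, 12 of them occupied, and block 2 held 5, all occupied. Block 3 was the longest at 232617 bp and had 27 of its 29 members occupied. Block 4 consisted of the testis pair Hist1h2ba and Hist1h2aa, and neither was occupied. Taken by cluster, 44 of 54 Hist1 members were occupied, 9 of 10 Hist2 members, both Hist3 members and the single Hist4 member. Peaks of the replicated list covered 9.45% of block 1, 15.6% of block 3 and 15.6% of the Hist2 block.

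**Figure D2:**
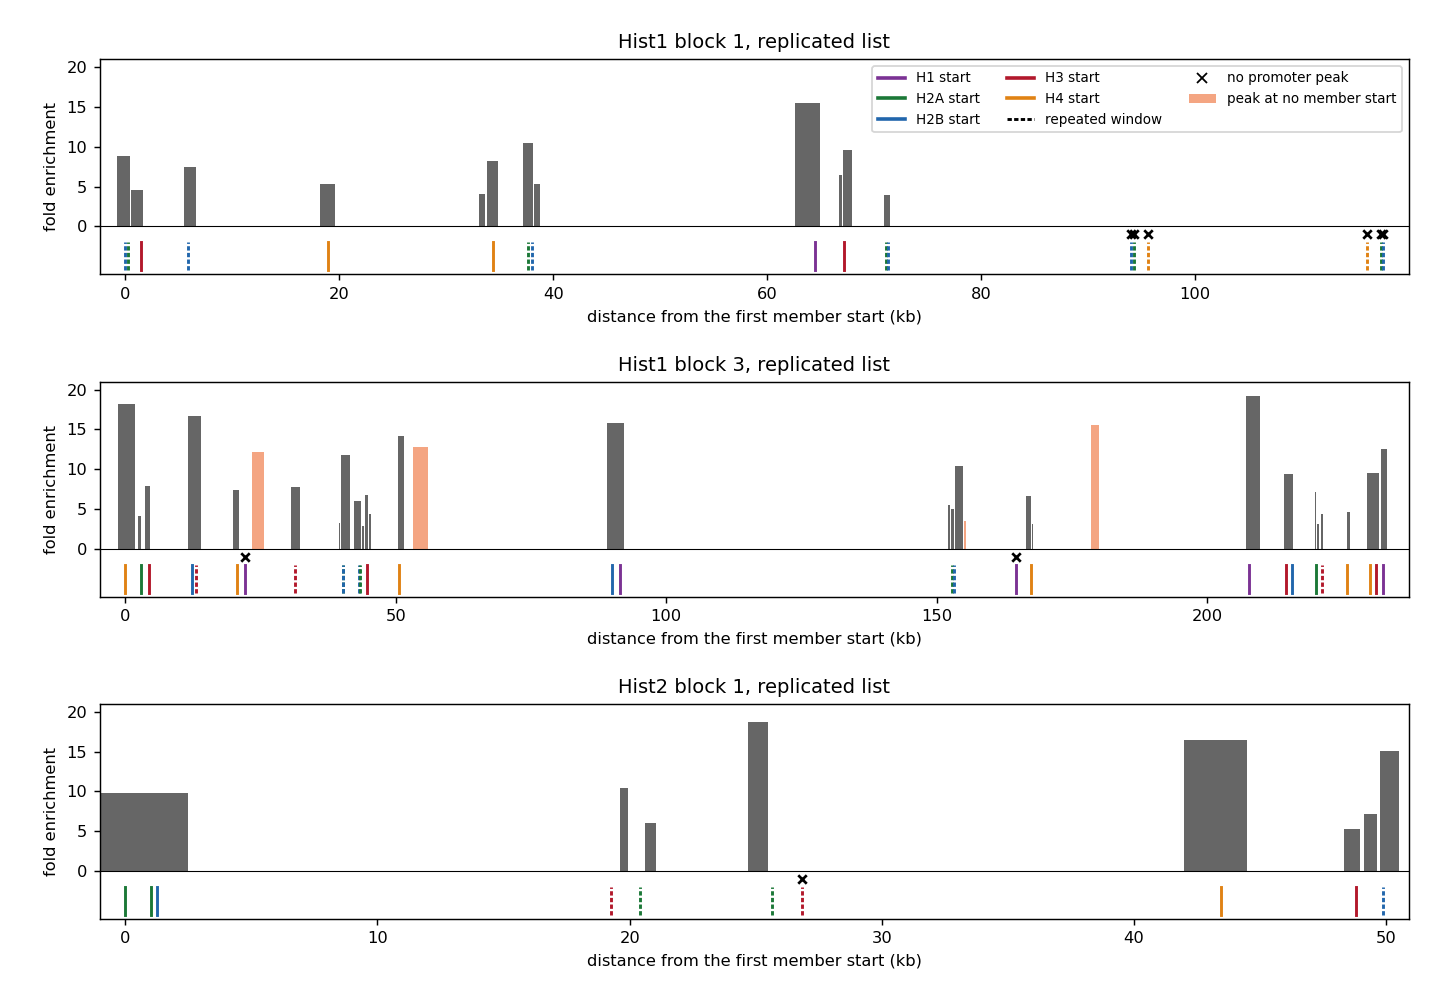
Maps of Hist1 block 1, Hist1 block 3 and the Hist2 block, with the distance from the first member start in kb on the horizontal axis and the fold enrichment of each peak of the replicated list as the height of its box. Coloured ticks are member starts by histone type, dashed ticks have a repeated promoter window, crosses mark members without a promoter peak and orange boxes are the 4 peaks of block 3 that lie at no member start; the 6 crosses of block 1 lie in a stretch without any peak.

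Only 2 other protein-coding genes start inside the blocks, and both were occupied. Hfe, which encodes a regulator of iron uptake, lies in Hist1 block 3 and had a fold enrichment of 15.5 in the replicated list, 19.5 in pool G and 14.5 in pool H. Trim17, which encodes a ubiquitin ligase, starts at the same base as Hist3h2a and shared its peak, so the mark there cannot be assigned to either gene. Of the 31 peaks in block 3, 4 lay at no member start. One was Hfe's, and a weak one of 3.55 was 1874 bp from the Hist1h2bc start. The other 2 lay at the coding starts of Hist1h1d and Hist1h2be.

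The values of these 2 members depend on where the start is placed. GENCODE M21 starts Hist1h1d at position 23553262, which is 1828 bp before its coding sequence, and no peak came within 1000 bp. RefSeq starts the gene at position 23555032, and a peak at chr13:23554501-23556726 covered that base, with a fold enrichment of 12.2 in the replicated list, 14.9 in pool G and 8.53 in pool H. Counted from RefSeq starts, 57 of the 67 members were occupied and Hist1h1d was no exception. GENCODE M21 starts Hist1h2be, an H2B gene, 35168 bp from its coding sequence, where it falls in the peak of Hist1h1e (15.8 in the replicated list). A separate peak at chr13:23584318-23586986 covered the coding start of Hist1h2be, with 12.8 in the replicated list, 22.1 in pool G and 15.6 in pool H. RefSeq also gives Hist1h2be a start at position 23585970, inside this separate peak. Over all its RefSeq starts the highest peak was still the one of 15.8 in the replicated list. Its coding start alone gave 12.8.

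The testis-specific members stood in different surroundings. Hist1h2ba and Hist1h2aa start 306 bp apart on opposite strands, at positions 23934156 and 23934462 of chromosome 13. The nearest peak of the replicated list was 161121 bp from Hist1h2ba, with a fold enrichment of 2.30. Both have a CpG-rich promoter, with observed over expected CpG ratios of 0.65 and 0.63, and 7.07% of the words of each window recurred in the genome. Of all CpG-rich coding genes, 96.7% were occupied in the replicated list. Hist1h1t, in contrast, lies among occupied members, 1787 bp from a peak of 6.59 at Hist1h4c, and counted as occupied when the window was widened to 2000 bp. None of these 3 members had a promoter peak in the list of either pool. The germ cell genes Prm1, Tnp1, Acrv1, Sycp3 and Ddx4 also had no promoter peak in any list, beside 63.0% of all genes with one in the replicated list. Of these genes only Ddx4 has a CpG-rich promoter, and 46.0% of all genes without such a promoter were occupied.

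Histone genes are near-copies of each other, so the share of each promoter window that also occurs elsewhere was measured in the genome sequence. A window was called repeated where over 25% of its 50-base words, on either strand, occurred at another place in mm10. This held for 31 members, of which 24 were occupied in the replicated list, against 32 of the 36 others. The 6 unoccupied neighbours of Hist1 block 1 were the extreme of this measure. All words of the windows of Hist1h2bq, Hist1h2ao, Hist1h2ap and Hist1h2br recurred (100%), as did 93.0% of those of Hist1h4m and 92.0% of those of Hist1h4n. Hist1h2bq and Hist1h2br were copies of each other, as were Hist1h2ao and Hist1h2ap, with 100% of the words of one found around the other. For Hist1h4m and Hist1h4n that share was 78.0%. The nearest peak lay 21767 to 24083 bp away from these 6 genes in the replicated list.

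The Hist2 cluster holds a second pair of copies, and there the values were partial. Hist2h3c1 and Hist2h3c2 encode H3, and 78.5% and 77.6% of their words recurred. Hist2h3c2 was occupied in all 4 lists, at 10.5 in the replicated list, 12.5 in pool G and 8.29 in pool H, from a peak that did not cover its start. Hist2h3c1 had a peak of 4.54 in pool G, 4.03 in the pseudoreplicated list and none in pool H or the replicated list. The H2A copies Hist2h2aa1 (54.4% repeated) and Hist2h2aa2 (57.2% repeated) were occupied in all lists, and in the replicated list no peak covered their starts either. These were the only 3 of the 56 occupied members whose start itself lay outside every peak.

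Base by base, repeated sequence in these windows was less often in a peak than sequence that does not recur. In the 31 members with a repeated window, peaks of the replicated list covered 70.6% of the bases that do not recur and 19.4% of those that do. The same shares were 74.9% and 22.9% in pool G and 53.1% and 14.2% in pool H. Without the 6 copied genes of Hist1 block 1, whose windows are repeated nearly throughout, the shares in the replicated list were 71.9% and 35.0%, with 76.3% and 41.3% in pool G and 54.0% and 25.5% in pool H. In the windows of the 36 other members the shares were alike, 62.7% and 63.4%, although only 4186 repeated bases stood behind the second value. The handling of reads that fit several places is not given in the sources used here, and the part of read placement in these values was not tested.

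**Figure D3:**
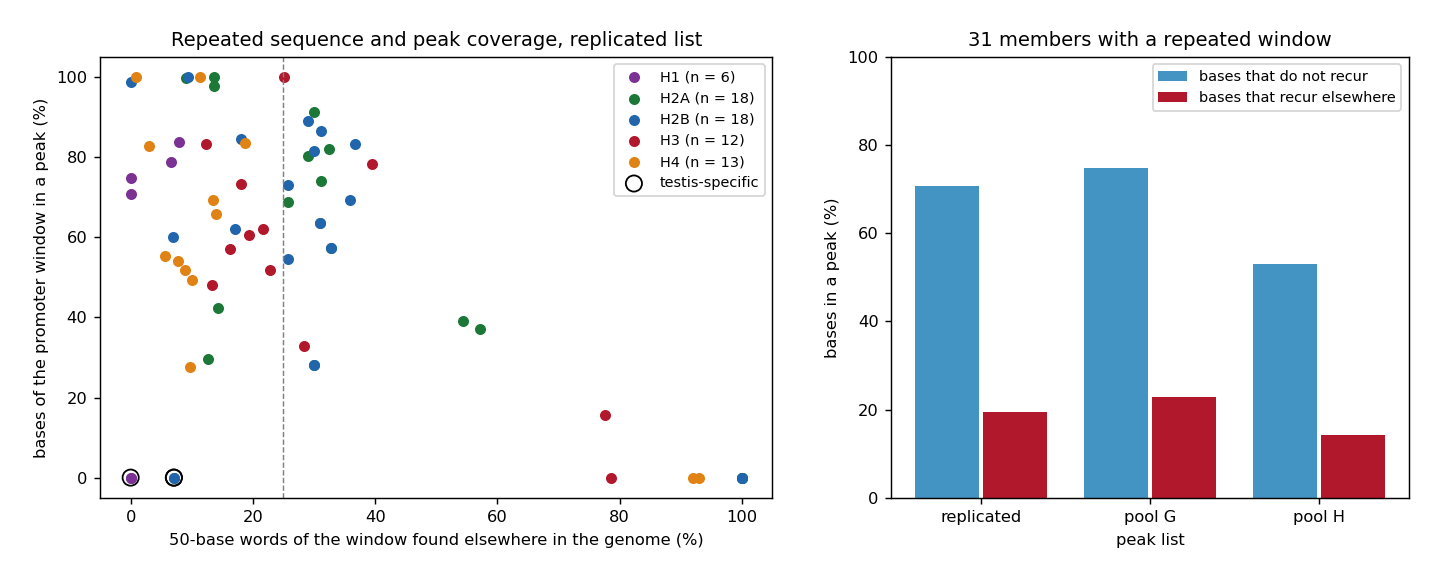
Left, share of the promoter window in a peak of the replicated list against the share of its 50-base words found elsewhere in the genome, 1 point per member, coloured by histone type, with rings around the testis-specific members and a dashed line at 25%. Right, share of bases in a peak for the 31 members with a repeated window, split by whether the base recurs (red) or not (blue), in 3 lists; the red bars stand at 19.4%, 22.9% and 14.2%.

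The same split was seen downstream of the start, and it was mixed upstream. At the start, 53 of the 56 occupied members lay in a peak, and none of the 56 bases was repeated. At 250 bp into the gene, inside the coding sequence of most members, the number in a peak was 34, and 36 of the 56 bases were repeated. There, 16 of the 36 repeated positions and 18 of the 20 others lay in a peak. At 450 bp, 5 positions were repeated and 45 lay in a peak. Upstream, at -600 bp, 10 of 13 repeated positions and 28 of 43 others lay in a peak. At -500 bp these numbers were 5 of 16 and 27 of 40. In the replicated list, 46.4% of occupied members had 2 or more peaks in the promoter window, beside 22.4% of all occupied genes. Among members with a repeated window this share was 70.8%, and among the others 28.1%. In pool G, 40.4% of members and 19.3% of all genes had 2 or more peaks. In pool H the gap was small, 31.5% beside 24.8%, with 12 of 24 members with a repeated window and 5 of 30 others.

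**Figure D4:**
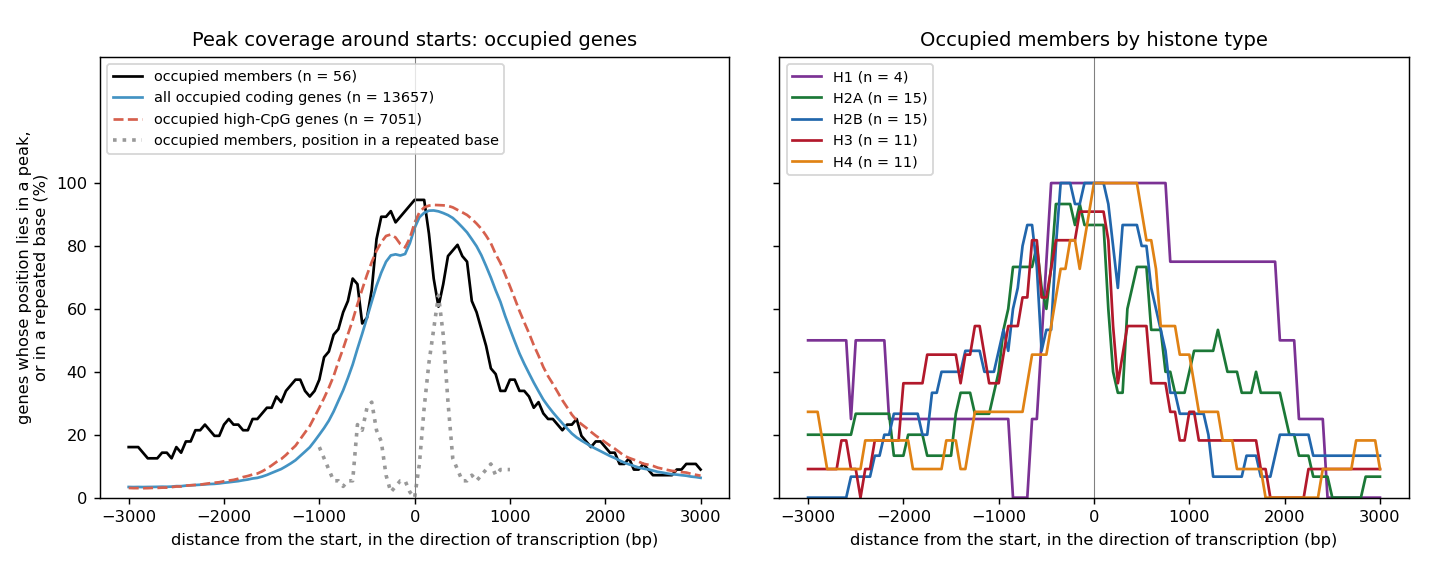
Share of genes whose position lies in a peak of the replicated list, by distance from the start in the direction of transcription (bp). Left, the 56 occupied members (black), all 13657 occupied coding genes (blue) and the 7051 CpG-rich ones (dashed red), with the share of members whose position is a repeated base (dotted grey, within 1000 bp); the black line dips to 34 of 56 members at 250 bp, where the dotted line peaks. Right, the same coverage by histone type.

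The peaks that were present had low values. The fold enrichment of a member was taken as that of the highest peak at its promoter, which is the authors' signal value. Its median over occupied members was 9.51 in the replicated list, beside 15.3 over all occupied genes. Of the 56 members, 46 were below that gene-wide median, 38 were below the lower quartile of 10.5 and 2 were above the upper quartile of 19.0. Over the pools' own lists the median was 9.84 ± 2.73 for members and 15.5 ± 3.71 for all genes (SD, n = 2 pools). The median was 8.88 for the 24 occupied members with a repeated window and 9.68 for the 32 others. The gap was wider within each pool, 9.66 beside 12.1 in pool G and 7.03 beside 10.1 in pool H, and both groups stayed below the medians of all genes, 18.2 in pool G and 12.9 in pool H. As hearts are mixtures of cell types, fewer cells with the mark and less mark per cell cannot be told apart.

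The H1 genes stood highest of the 5 types, and at most 7.94% of the words of their windows recurred in the genome. Their median was 15.6 for 4 occupied of 6, near the value for all genes. Hist1h1c, which encodes H1.2, had 19.2 in the replicated list, 23.2 in pool G and 16.4 in pool H. Hist1h1e, which encodes H1.4, had 15.8, 13.5 and 11.4 in the same order. Hist1h1b (H1.5) had 15.5, 19.6 and 12.7. Hist1h1a (H1.1) had 12.5, 14.9 and 10.1 and had the widest domain of the type, 3858 bp. Within each pool Hist1h1c was highest and Hist1h1b next, while the order of Hist1h1e and Hist1h1a differed between the pools.

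The core histone types had lower medians that were close to each other in the replicated list. They were 9.81 for H2A (15 occupied of 18), 9.45 for H2B (15 of 18), 9.45 for H3 (11 of 12) and 8.56 for H4 (11 of 13). Over the pools the medians were 9.62 ± 3.52, 9.22 ± 2.95, 8.89 ± 2.60 and 10.1 ± 1.39 (SD, n = 2 pools). That spread holds the general shift between the pools and does not measure differences between types. Within pool G the medians were 12.1, 11.3, 10.7 and 11.1, and within pool H 7.13, 7.13, 7.05 and 9.10. The order of the core types thus differed between the pools. H1 had 14.7 ± 3.66 over the pools, and its pool H value of 12.1 was above that of every core type in pool H. This did not hold among members neither testis-specific nor with a repeated window. There the pool H medians were 13.1 for H2A (5 occupied), 12.1 for H1 (4), 11.4 for H2B (5), 7.04 for H3 (6) and 9.10 for H4 (10). The H2A median is the value of a single peak shared by Hist2h2ab, Hist2h2ac and Hist2h2be. The H2B median is that of Hist1h2be, taken from the peak of the H1 gene Hist1h1e. The order of H1, H2A and H2B in pool H thus rests on few genes and on shared peaks. In pool G, H1 stayed highest among such members, at 17.2 beside 12.1 for H2A and for H2B, 11.3 for H3 and 11.1 for H4.

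**Figure D5:**
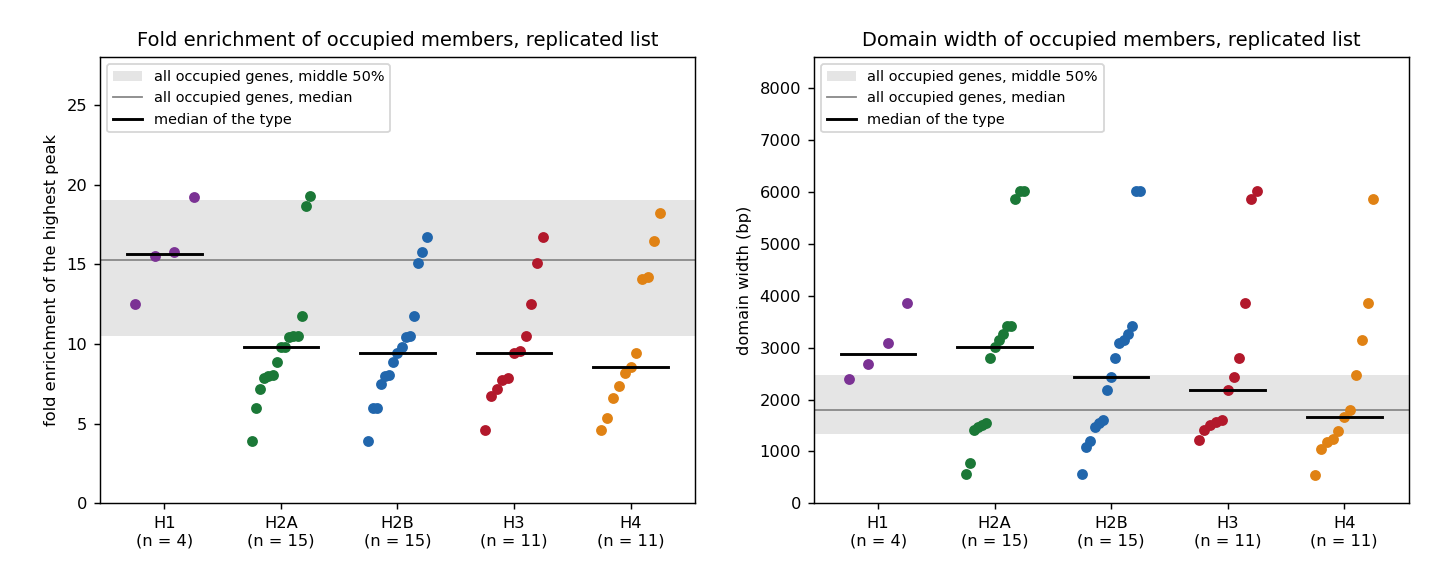
Fold enrichment of the highest promoter peak (left) and domain width in bp (right) of the occupied members in the replicated list, 1 point per member, by histone type. Black bars are the medians of the types, the grey line and band are the median and middle 50% of all occupied genes; most core histone points lie below the band on the left, and the domain widths reach 6026 bp on the right.

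The highest and lowest genes of each core type below are those of the replicated list. Among H2A genes the highest values were outside the Hist1 cluster, in both pools as well. Hist3h2a, at the start it shares with Trim17, had 19.3 in the replicated list, 23.0 in pool G and 15.4 in pool H, which is the highest of all members in the replicated list only. Hist2h2aa1 had 18.7, 21.6 and 15.6 in a peak of only 784 bp. The lowest H2A genes were Hist1h2an (3.92, 4.14 and 5.50) and Hist1h2ad (5.96, 7.57 and 6.75).

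Among H2B genes Hist1h2bh was highest, with 16.7 in the replicated list, 16.4 in pool G and 13.6 in pool H, in the peak it shares with the H3 gene Hist1h3f. Hist1h2be followed at 15.8 through the start that lies in the peak of Hist1h1e. The lowest were Hist1h2bp, in the same peak as Hist1h2an, and Hist1h2bf with 5.96, 7.57 and 4.71. Hist2h2bb had 15.1, 18.9 and 15.6, which is above Hist1h2bh in both pools, and Hist3h2ba had 6.01, 7.76 and 5.34.

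For H3, Hist1h3f was highest, and Hist2h3b followed with 15.1 in the replicated list, 18.9 in pool G and 5.25 in pool H, so that their order was reversed in pool G. In the first 2 of these lists Hist2h3b took its value from the peak at Hist2h2bb, which did not reach its window in pool H. Hist1h3h was the lowest H3 gene, with 4.61 in the replicated list, 5.56 in pool G and no peak in pool H. Hist1h3d had 6.73, 7.57 and 6.75 and lay in the widest domain, together with 4 other members.

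For H4, Hist1h4h was highest with 18.2 in the replicated list, 17.3 in pool G and 15.1 in pool H, and it had the widest H4 domain at 5876 bp. Hist2h4, with 16.5, 19.2 and 17.1, and Hist4h4 on chromosome 6, with 14.1, 23.7 and 13.9, were also near or above the median of all genes. Both were above Hist1h4h in pool G, and Hist2h4 was so in pool H. Hist1h4b was lowest, with 4.60 in the replicated list, 6.22 in pool G and no peak in pool H. Hist1h4j had 5.34, 6.02 and 7.72. H4 summits lay downstream of the start in 10 of 11 occupied members of the replicated list, beside 77.6% of all occupied genes. In pool G they did so in 10 of 11, beside 77.0%, but in pool H in only 7 of 10, beside 77.3%. H2B summits lay downstream in 3 of 15 in the replicated list and in 4 of 15 in each pool. Many H2B genes share their highest peak with a neighbour, so such a summit is not theirs alone.

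The remaining Hist2 members were occupied in every list. Hist2h2ab, Hist2h2ac and Hist2h2be shared a single peak of 3428 bp at chr3:96218907-96222334, with 9.81 in the replicated list, 12.1 in pool G and 13.1 in pool H. The start of the neighbouring gene Bola1 lies in the same peak, so the mark there cannot be assigned to the histone genes alone. Here pool H was above pool G. Across the 54 members occupied in both pools, pool G was higher at 48, with a median ratio of pool G to pool H of 1.42. The ratio over all 13245 genes occupied in both pools was also 1.42, the same to the digits given.

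Because the genes stand close together, members shared peaks and domains. A domain was made by joining peaks no more than 1000 bp apart, and 32 domains held the 56 occupied members. Of these, 16 held 1 member, 10 held 2 and 6 held 3 or more, so that 40 members shared a domain. The widest, at chr13:23570505-23576530, was 6026 bp long, was made of 6 peaks and held Hist1h2ae, Hist1h2bg, Hist1h2bf, Hist1h2ad and Hist1h3d. The next, of 5876 bp at chr13:23529747-23535622, held Hist1h4h, Hist1h2af and Hist1h3g. At the other end, Hist1h4b had a domain of 551 bp and Hist1h2an and Hist1h2bp one of 564 bp.

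The median domain width of occupied members was 2427 bp in the replicated list, beside 1799 bp over all occupied genes, and 27 of the 56 were above the upper quartile of 2469 bp. It depended on the joining of peaks and on the list. The median width of the highest single peak of each member was 1193 bp, beside 1601 bp over all occupied genes. Over the pools the median domain width was 1988 ± 692 bp (SD, n = 2 pools), beside 1786 ± 150 bp over all genes. In pool H alone the members were narrower than the genes at large, with 1498 bp beside 1680 bp, and in pool G they were wider, with 2477 bp beside 1892 bp.

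H2A and H2B genes are known to lie head to head with a common promoter. There were 13 pairs of members on opposite strands whose starts point away from each other and lie at most 1000 bp apart, 12 of an H2A with an H2B gene and 1 of an H2B with an H3 gene. Their starts were 176 to 660 bp apart, with a median of 268 bp. In 10 pairs both genes were occupied in the replicated list, and in all 10 they shared their highest peak, and the whole stretch between the starts was covered. The same held in pool G. In pool H, Hist1h2bf and Hist1h2ad had different highest peaks, and peaks covered 50.8% of the stretch between Hist1h2ae and Hist1h2bg and 38.9% of that between Hist1h2ac and Hist1h2bc. In the replicated list the highest H2A and H2B pair was Hist1h2ae and Hist1h2bg, with 11.7 in the replicated list, 15.1 in pool G and 8.68 in pool H. In pool H the pair Hist2h2ac and Hist2h2be was higher, at 13.1. The lowest pair of the replicated list was Hist1h2an and Hist1h2bp. The other 3 pairs were occupied at neither gene: 2 were the copied pairs of Hist1 block 1 and 1 was the testis pair. No pair was occupied at 1 gene only. The starts of a pair lie closer together than the 1000 bp reach of the promoter window. A peak near either gene therefore mostly counts for both, so joint occupancy and a shared highest peak were largely set by the rule.

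Occupancy was also split by the CpG content of the promoter. A promoter was called CpG-rich where CpG sites reached 0.6 of the number predicted from base composition and G and C made up 0.5 of the bases or more. Of 39 members that were not CpG-rich, 37 were occupied in the replicated list (94.9%), beside 46.0% of all such genes. Most of these 39 met the CpG ratio and fell short only in G and C. Examples are Hist1h4h (ratio 0.90, G and C 0.461) and Hist1h2bc (0.79 and 0.49975). Others fell below the ratio, such as Hist1h4d (0.52) and Hist1h1d (0.14), so the class is not poor in CpG throughout. Of 28 CpG-rich members, 19 were occupied (67.9%), beside 96.7% of all such genes. The 9 CpG-rich members without a peak were the 6 copied genes of Hist1 block 1, the testis pair and Hist2h3c1. Other genes with a single exon, a feature of 62 of the 67 members, were occupied in 26.6% of 1257 cases overall and in 91.4% of the 244 that were CpG-rich.

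The promoter motifs known for histone genes were counted by histone type. TATAAA was found in 35 of 62 members' promoters (56.5%), beside 14.2% of all 27025 promoters of the table. CCAAT was found in 53 of 62 (85.5%), beside 37.9%: it was in every H1, H2A, H2B and H3 promoter and in 3 of 12 H4 promoters. The octamer ATGCAAAT was found in 14 (22.6%), beside 1.75% of all promoters, and TTTNGCGC also in 14, beside 1.38%. Both occurred only in H2A (7 of 18 each) and H2B (7 of 16 each) promoters among the members. Within an H2A and H2B pair the promoters overlap, so a single match can count for both genes. The stem-loop was looked for within 200 bp after the stop codon, as GG and 4 more bases, a TTTN loop and the reverse complement of those 6 bases, and 63 of 67 members had it. All 11 unoccupied members had it, the testis-specific ones included. The matches are descriptions of sequence, not sites of binding.

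Genes that serve histone production outside the clusters were taken from 4 lists, and their medians stand beside 15.3 over all occupied genes and 9.51 over the members. Of 17 replication-independent variant genes found in the annotation, 11 were occupied in the replicated list, a share close to the 63.0% of all genes, with a median of 16.4, and H3f3a, which encodes H3.3, was highest at 24.8. The 6 without a peak were H1foo, the oocyte linker histone, H1fnt and Hils1, which are spermatid linker histones, and H2afb1, H2afb3 and H2bfm. All 15 genes for transcription and processing of histone messages were occupied, with a median of 15.9 and the highest value of 24.0 at Pou2f1, whose product binds the octamer. All 10 histone chaperone genes were occupied (median 17.0, highest Nasp with 25.2), as were all 11 genes of the H3K4 methyltransferase complexes (median 21.0, highest Ash2l with 25.7). The same numbers were occupied in the lists of both pools. Most genes of the fully occupied lists have a CpG-rich promoter, and 96.7% of all CpG-rich genes were occupied in the replicated list.

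Markers of cell types were set beside the tissue label. All 5 heart muscle markers (Myh6, Tnnt2, Actc1, Nkx2-5 and Ryr2), 3 of 3 for endothelium and 3 of 3 for fibroblasts had a promoter peak in all 4 lists. None of the 3 leukocyte and 3 hepatocyte markers did. No leukocyte or hepatocyte marker has a CpG-rich promoter, and 46.0% of all genes without one were occupied in the replicated list. The 4 genes of dividing cells, Mki67, Top2a, Ccnb1 and Rrm2, were occupied in all lists, with a median of 10.8 in the replicated list. Over all protein-coding genes 63.0% were occupied in that list. Mki67, Ccnb1 and Rrm2 have a CpG-rich promoter, and 96.7% of all CpG-rich genes were occupied. The part of dividing cells in the members' values was not tested.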

How the data were processed

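H3K4me3 peaks were analysed as deposited, in narrowPeak lists on mm10. The lists came from pool G, pool H and both pools, per the labels' notes, and hold no values per library. The peak caller, its threshold and the handling of reads that fit several places are not given in the sources used here. Each peak's signal value deposited by the authors was taken to be a ratio (fold enrichment over control). No header names the column, so this is an assumption. The authors' -log10 q values served for a threshold of 5 as an alternative. Genes came from GENCODE M21, genome sequence and promoters from RefSeq (GRCm38.p6). Windows, domains, blocks and word counts were computed in Python 3.11.15 with numpy 2.4.6 and pandas 2.3.3. On simulated data, windows and domains were tested against bedtools 2.31.1 and word counts against a plain count. Blocks were not tested in this way. The members, the gene lists, the alternatives and the rule for named genes (members without a peak, members that differ between lists, testis-specific members, all of Hist2, Hist3 and Hist4, the extremes of each histone type, the extremes of related lists and genes inside the blocks) were chosen with earlier results of these data known. RefSeq starts, coding starts and the omission of the 6 copied genes were added after seeing the data. Spread is the mean and SD over pools, with no test.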

Additional observations from a re-analysis of the deposited data

How the results depend on the processing

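Alternatives covered each pool's own list, the pseudoreplicated list, -log10 q of at least 5, other promoter windows, the longest transcript, other rules for joining peaks, choosing a peak and splitting blocks, shorter and longer words, and RefSeq or coding starts. Of 137 values, 133 stayed within 1.5 times the count, or within 1 SD between pools for medians. The other 4 were the median domain width, 1498 bp in pool H and 1193 bp with no gaps joined, the testis-specific members occupied, 1 with a window of 2000 bp, and the members with a repeated window, 16 with 100-base words. This rule is coarse. For medians the SD came from the same 2 pool lists that were then judged by it, so it is no independent measure for them. With 56 of 67 members occupied, that count could not rise by 1.5 times. Joining gaps of up to 3000 bp gave a median domain width of 3118 bp, beside 2427 bp, and still counted as unmoved. Leaving out a pool gave 54 to 57 occupied members. No paired analysis was possible because the lists are per pool and hold no values for the technical replicates that share a number. Read depth was not given, so a missing peak shows only that none was called.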
